A study of Rattus norvegicus with 8 samples.

Results

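Non-clustered protocadherins are cell adhesion proteins whose genes lie singly in the genome. Here they were followed as 9 genes (Pcdh1, Pcdh7, Pcdh8, Pcdh9, Pcdh10, Pcdh11x, Pcdh17, Pcdh18 and Pcdh19) in the hypothalamus of rats after a single exposure to vaporized cannabis. The members were all rows of the deposited data that carried one of these gene symbols, which gave 227 of the 98356 alternative polyadenylation (APA) sites and 9 of the 18003 gene symbols. The set was chosen by values measured in these same rats, because sites of Pcdh9 were known to differ between cannabis and air. The Pcdh9 values are therefore a description without a test, and no test of another member is independent evidence.

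WTTS-Seq, short for whole transcriptome termini site sequencing, is designed to start each read at the 3′ end of polyadenylated RNA. Each read counts toward the site at which a transcript is taken to end. Hypothalamic RNA came from adult male Long-Evans rats that received vaporized cannabis plant matter (4 libraries) or air alone (4 libraries). The exposure lasted 10 min and tissue was collected 1 hr after it. Cannabis-exposed rats are replicates 1, 2, 3 and 5 and air-treated controls are replicates 1, 2, 3 and 4. Each library is taken here as 1 rat, which the labels do not state. All values are normalized counts, that is, reads on a site after division by the size factor of its library. A gene total is the sum of these over the sites of a gene. In bulk tissue of this kind, fewer cells of a type and less RNA per cell cannot be told apart.

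Protocadherins of this group span the plasma membrane once, bind the same protein on a neighbouring cell and recruit regulators of the actin cytoskeleton from inside the cell. In the brain they take part in axon growth, sorting of nerve cell populations and the formation or removal of synapses. Pcdh1, Pcdh7, Pcdh9 and Pcdh11x have the longer extracellular part, whereas Pcdh8, Pcdh10, Pcdh17, Pcdh18 and Pcdh19 have a shorter part. Genes of this kind can hold very long introns, and an RNA that ends inside an intron lacks the coding sequence that follows.

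Depth on sites ranged from 1159811 to 3706778 reads per library, and 3.32% to 26.1% of the sites of a library had no read. This percentage was highest in air control replicate 4 (26.1%) and cannabis replicate 1 (17.0%). The groups also differed in midbrain dopamine and hypothalamic neuron markers. No thalamic or cortical, oligodendrocyte, oligodendrocyte precursor, astrocyte, microglia, endothelial or mural, or choroid plexus or pituitary marker passed limma P under 0.01. The summed counts of each of these marker sets overlapped between the groups. The summed midbrain dopamine markers (10 of 12 measured) were 864.3 to 1107 normalized counts in air-treated controls and 286.9 to 448.6 in cannabis-exposed rats. The list name does not say in which cells these RNAs arose, inside or outside the hypothalamus, and this was not tested. Of these markers, 4 fell at limma P under 0.01 (Slc6a3, Th, En1 and Ddc), a threshold passed in either direction by 0.278% of all gene totals. None of these markers was at 0 in all libraries. Pitx3 (-1.21), Aldh1a1 (-0.65), Slc18a2 (-0.39) and Nr4a2 (-0.35) had negative log2 fold changes that missed this threshold. Foxa1 (0.75) and Lmx1b (0.39) had positive ones that also missed it. The summed hypothalamic neuron markers (15 of 16 measured) were 4705 to 6741 and 9041 to 11362 normalized counts, and Avp and Oxt rose at the same threshold. Avp (means of 1952 and 4934) and Oxt (595.7 and 1193) made up most of that sum's difference, and Sim1, Gal and Nr5a1 had negative log2 fold changes. The labelled tissue was therefore present in every library, and the part of the marker difference in any protocadherin value below was not tested.

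All 9 protocadherins were read in every library, and their totals differed widely (gene totals in each rat are plotted). Pcdh9 had the highest total with a mean of 949.5 ± 24.8 normalized counts in air-treated controls (SD, n = 4). Pcdh17 followed with 592.9 ± 98.7, Pcdh7 with 306.0 ± 20.6 and Pcdh19 with 253.4 ± 44.9. The ranges of Pcdh9 and Pcdh17 did not overlap in these rats, nor did those of Pcdh17 and Pcdh7, but Pcdh7 (282.0 to 324.6) and Pcdh19 (203.2 to 307.7) overlapped. Pcdh11x had 159.2 ± 18.1, Pcdh10 had 141.8 ± 98.5 and Pcdh8 had 36.6 ± 23.1. The spread of Pcdh10 spanned all values of Pcdh11x. Pcdh1 with 19.7 ± 8.47 and Pcdh18 with 18.4 ± 2.26 were lowest and did not differ beyond their spread. WTTS-Seq is designed to read each RNA once at its end, and these levels were compared without a length correction. Whether every read marked a true RNA end, or gene length had a part in this ranking, was not tested.

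The number of sites differed even more than the totals. Pcdh9 had 116 sites, Pcdh7 had 44, Pcdh11x had 26, Pcdh17 had 18 and Pcdh10 had 11. The other members had few sites, with 6 in Pcdh19, 3 in Pcdh1, 2 in Pcdh18 and 1 in Pcdh8, beside a median of 2 sites over all gene symbols. By number of sites Pcdh9 ranked 5, with Lrrc4c at the same number, after Cntnap2 (140), Nrxn3 (133), Lrp1b (120) and Nrg3 (119). Most of these sites were thinly read. Of the 227 sites, 182 had a mean under 10 normalized counts, and 58 of the 116 Pcdh9 sites had a read in all 8 libraries.

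The genes also differed in how far the reads were spread over their sites. The most used Pcdh9 site held 10.7% of the gene's reads on average over the 8 rats, and 14 sites were needed to reach 50%. Pcdh7 needed 7 sites, Pcdh11x needed 5, Pcdh17 needed 3 and Pcdh10 needed 2. In contrast, a single site held 61.6% of Pcdh19 and 92.5% of Pcdh18. Pcdh17 had the total next below that of Pcdh9, but its 3 leading sites held 68.6% of its reads where those of Pcdh9 held 25.1%. Between 85 and 111 of the 116 Pcdh9 sites had a read in a library, fewest in air control replicate 4. When each library was thinned to 494 Pcdh9 reads, from 85 to 96.3 sites were expected in air-treated controls and from 78.3 to 92.6 in cannabis-exposed rats, with cannabis replicate 1 lowest.

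**Figure D1:**
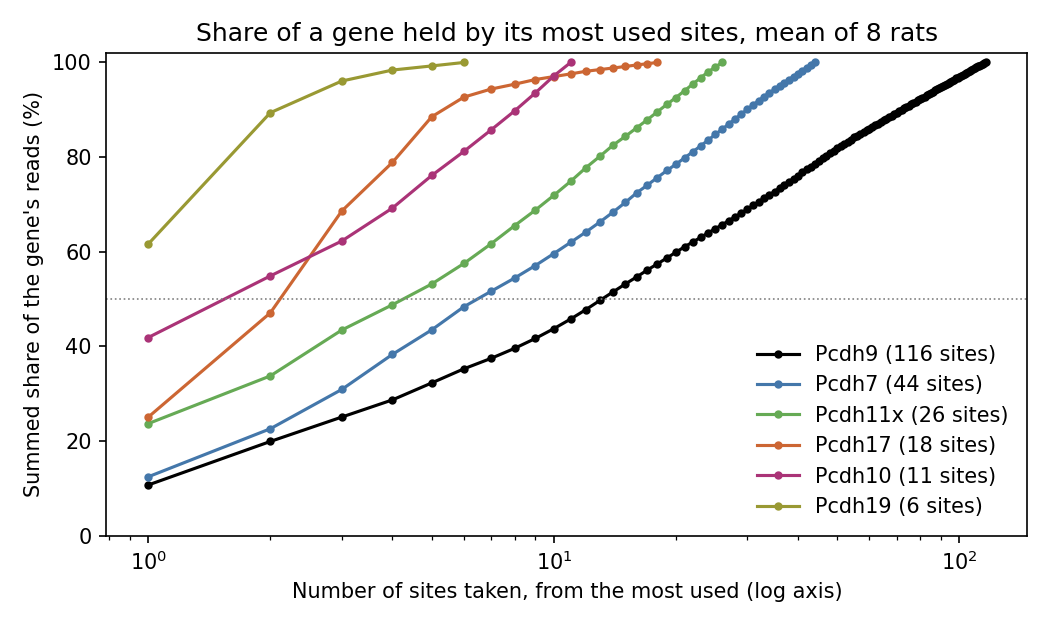
Summed share of a gene's reads (percent, mean of 8 rats) against the number of sites taken from the most used on, on a log axis, for the 6 members with more than 3 sites. Pcdh19 passes the dotted line at 50% with its first site and Pcdh9 with its 14th site.

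Pcdh9, an adhesion protein of cortical and other brain neurons that has been tied to sensory and social behaviour in mice, was described site by site, with sites numbered from the most used. Site 1 had 74.6, 104.1, 146.4 and 137.0 normalized counts in air control replicates 1 to 4. In cannabis replicates 1, 2, 3 and 5 it had 141.6, 79.0, 93.5 and 86.8. Site 2 had 81.9, 67.0, 117.5 and 87.4 in controls against 75.8, 110.9, 64.9 and 132.9 in cannabis-exposed rats. At both of these leading sites the groups overlapped almost fully.

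Sites 3 and 4 looked different. Site 3 had 0, 50.3, 0 and 31.8 normalized counts in controls and 126.7, 69.7, 79.7 and 76.0 in cannabis-exposed rats. Each cannabis-exposed rat was above each control there, and both controls at 0 were deeply read libraries, in which 3 reads would have given 2.19 and 2.01 normalized counts. As a share of Pcdh9, site 3 held 2.13% ± 2.60 in controls and 8.18% ± 2.21 after cannabis exposure (SD, n = 4). Its log2 fold change of log2(normalized count + 1) was 3.76, and this value is sensitive to the scale because of the controls at 0. With a count model on the recovered reads it was 2.23 in edgeR and 2.11 in DESeq2.

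Site 4 lay in an intron of Pcdh9, at chromosome 15 from 77467622 to 77467641 on the minus strand of Rnor_6.0. It had 4.39, 22.7, 14.8 and 11.9 normalized counts in controls and 83.2, 57.1, 64.0 and 46.9 in cannabis-exposed rats. The lowest cannabis value was thus above the highest control value, and the log2 fold change was 2.30. Site 28 lay in an intron on the same strand, upstream of site 4 in the direction of transcription, at chromosome 15 from 77559991 to 77560000. Here controls had 10.97, 10.8, 16.8 and 13.9 normalized counts, whereas cannabis-exposed rats had 4.97, 0.664, 1.97 and 6.14. The groups were apart in the opposite direction at this lowly used site, with a log2 fold change of -1.87. The positions of site 3 and of the other Pcdh9 sites were not analysed here.

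**Figure D2:**
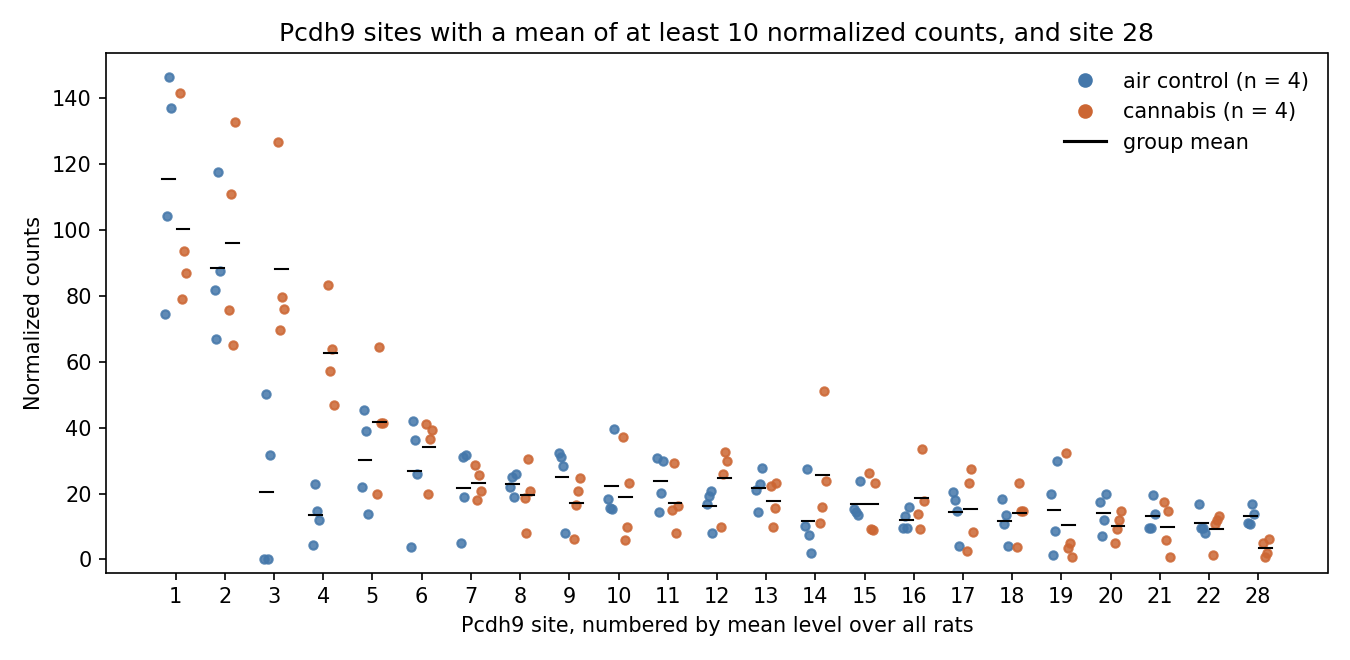
Normalized counts at the 22 Pcdh9 sites with a mean of at least 10 and at site 28, 1 point per rat, blue for air-treated controls and orange for cannabis-exposed rats, with bars for group means (n = 4 each). Sites 3 and 4 are higher in every cannabis-exposed rat and site 28 is lower, while the groups overlap at the other sites shown.

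The remaining Pcdh9 sites moved in both directions. Of the 22 sites with a mean of at least 10, 10 had a positive log2 fold change and 12 a negative one, with a median of -0.12. Over all 116 sites, 54 were positive and 62 were negative. At 7 sites (6.03%) the groups did not overlap, of which 6 were higher and 1 was lower in cannabis-exposed rats, beside 2.0% of all sites. Apart from sites 3, 4 and 28 these were sites 44, 73, 86 and 104, all higher and all with a mean under 10. Site 44, the most used of these, had 1.99 to 4.39 normalized counts in controls and 5.98 to 12.3 in cannabis-exposed rats. The genes were chosen on this contrast, so nothing is read from these counts.

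Sites could also differ strongly between rats of the same group. Site 6 had 3.66 normalized counts in air control replicate 1 and 25.8 to 41.9 in the other controls, and site 7 had 5.12 in that rat and 18.8 to 31.8 in the others. Air control replicate 1 was likewise at 0 at site 3 and lowest of the controls at site 4 and at site 1. At site 19, air control replicate 4 (29.8) and cannabis replicate 1 (32.3) were high, and the remaining rats had 0.768 to 19.7.

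The total of Pcdh9 was 920.4, 949.3, 947.4 and 981.1 normalized counts in controls. It was 1104, 948.6, 1144 and 1099.9 in cannabis-exposed rats. Cannabis replicate 2 lay within the range of the controls, and the other cannabis-exposed rats were above it. The difference of the means was 124.7 normalized counts, and its split over sites was examined after the values of sites 3 and 4 were seen. Sites 3 and 4 together had 4.39, 73.0, 14.8 and 43.7 normalized counts in controls and 209.9, 126.9, 143.7 and 122.9 in cannabis-exposed rats, a difference of means of 116.9. The other 114 sites had a mean of 915.6 ± 27.7 in controls and 923.4 ± 81.8 after cannabis exposure (SD, n = 4), a difference of 7.84. The 94 sites with a mean under 10 held 40.3% of the reads of Pcdh9 in controls and 35.6% in cannabis-exposed rats, with means of 381.9 ± 48.6 and 383.3 ± 50.9 normalized counts. Sites 3 and 4 thus carried nearly all of the difference in total, and their joint share of Pcdh9 was 3.55% and 14.0%.

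**Figure D3:**
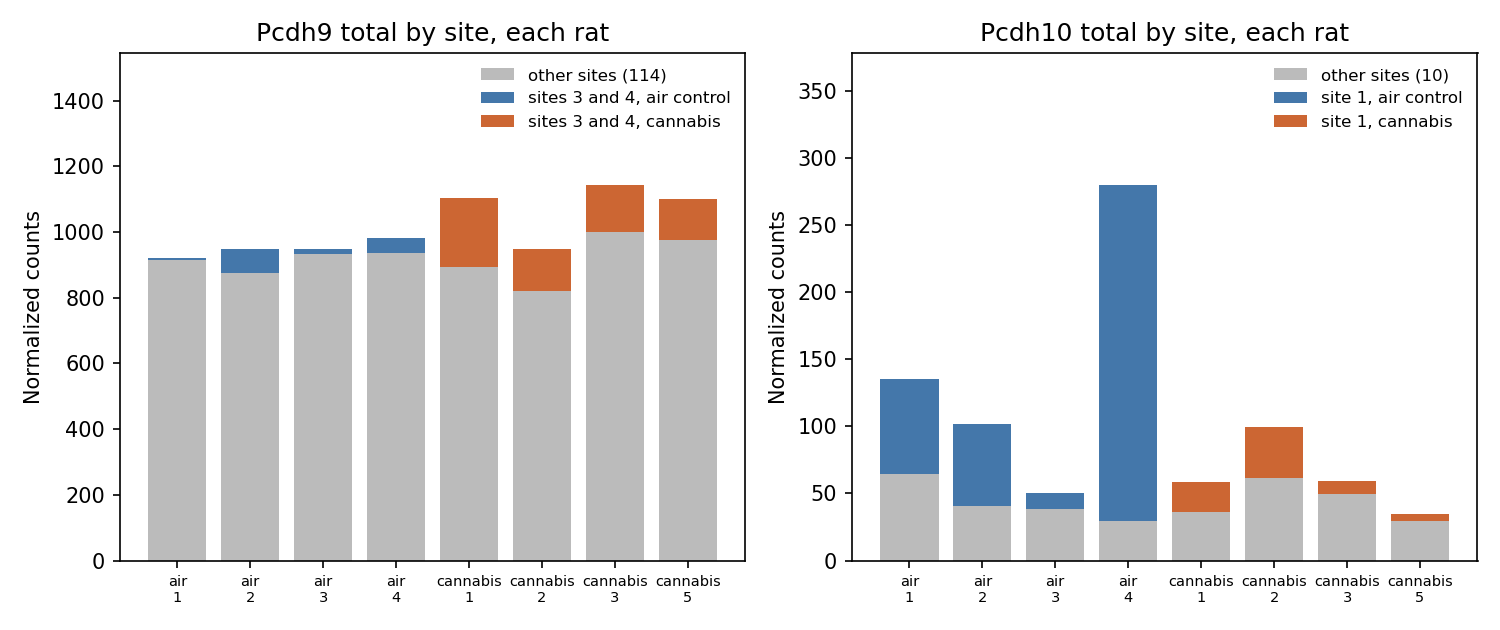
Total of Pcdh9 (left) and Pcdh10 (right) in each rat in normalized counts, as stacked bars, with all other sites in grey and Pcdh9 sites 3 and 4 or Pcdh10 site 1 in blue for air-treated controls and orange for cannabis-exposed rats. The grey part has means of 915.6 and 923.4 for Pcdh9 and 43.3 and 43.9 for Pcdh10, and the coloured part differs more between rats.

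The totals of the other members were tested with limma across all 18003 gene totals, of which 0.278% passed P under 0.01 and 0.00555% an adjusted P under 0.1. None of the 9 protocadherins passed either threshold, and 1 (Pcdh10) had an unadjusted P under 0.05, beside 2.41% of all totals. On the recovered reads, P under 0.01 was passed in edgeR by 0 of the members and 54 of the 18003 totals, and in DESeq2 by 1 member (Pcdh10) and 76 totals. No member had groups that did not overlap, beside 1.98% of all totals. The median log2 fold change was 0.06 over the members and 0.05 over all totals.

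Pcdh10, which binds the actin-regulating WAVE complex and takes part in synapse elimination, had 135.2, 101.8, 50.4 and 280.0 normalized counts in controls. Cannabis-exposed rats had 58.4, 99.6, 59.0 and 34.6. Values were highest in air control replicate 4 and overlapped between the groups. The log2 fold change was -0.996 (SE 0.445, 95% confidence interval -1.95 to -0.04) with P = 0.0426 and an adjusted P of 0.999 by limma, and the exact permutation test (two-sided, n = 4) gave P = 0.171. Leaving out single libraries gave log2 fold changes from -1.40 to -0.58. It passed P under 0.01 without air control replicate 3 (-1.40) and in DESeq2 (-1.27), but was -0.58 without air control replicate 4, -0.75 without cannabis replicate 5 and -0.33 with the replicate number as a block, past P of 0.05 in none of these.

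The difference of Pcdh10 lay at its site 1. This site was in an intron at chromosome 2 from 137010800 to 137010804 on the minus strand of Rnor_6.0, and the direction of the gene was not analysed here. Controls had 70.9, 61.1, 12.1 and 250.2 normalized counts and cannabis-exposed rats had 22.4, 38.5, 9.84 and 5.38. Air control replicate 4 stood far above all other rats, whereas air control replicate 3 lay within the cannabis range. The log2 fold change was -1.96 (SE 0.673), with P = 0.00817 and an adjusted P of 1.00 by limma, and P = 0.0857 by the exact permutation test (two-sided, n = 4). It held 56.4% of the gene's reads in controls and 27.3% in cannabis-exposed rats on average (P = 0.114 by the same exact test). In a split made after these values were seen, the other 10 sites together had 43.3 ± 14.8 and 43.9 ± 14.2 normalized counts (SD, n = 4).

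The call at Pcdh10 site 1 rested on single rats. Without air control replicate 4 its log2 fold change was -1.29, without air control replicate 1 it was -1.89, without air control replicate 2 it was -1.96, without cannabis replicate 3 it was -1.78 and without cannabis replicate 5 it was -1.52. In none of these did it pass P under 0.01, whereas it passed with all rats in edgeR (-2.24) and DESeq2 (-2.36) on the recovered reads. Air control replicate 4 had the fewest reads, so that its 250.2 normalized counts came from 126 reads.

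Pcdh17, an adhesion protein of growing axons and presynaptic terminals, had the next-highest total after Pcdh9. It had 630.1, 468.1, 701.6 and 572.0 normalized counts in controls and 686.7, 715.4, 698.7 and 789.6 in cannabis-exposed rats. All cannabis-exposed rats were above 3 of the 4 controls and near the highest control. The log2 fold change was 0.30 (SE 0.188, 95% confidence interval -0.11 to 0.70), with P = 0.136 by limma and P = 0.0857 by the exact permutation test (two-sided, n = 4), so the groups were not separated beyond the spread of single rats.

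Its sites 1, 2 and 4 were used differently from rat to rat. Site 1, at chromosome 15 from 67644512 to 67644806 on the plus strand and contained in a reference transcript, had 233.2, 129.3, 208.1 and 95.3 normalized counts in controls. In cannabis-exposed rats it had 62.1, 152.8, 188.9 and 252.7. Site 2 had 112.6, 94.6, 210.8 and 33.8 in controls and 111.8, 259.7, 146.6 and 193.6 in cannabis-exposed rats. Site 1 was lowest in air control replicate 4 and cannabis replicate 1 within their groups, and site 4 was highest in both (107.2 and 168.9, against 24.1 to 73.7 in the other rats). The log2 fold change of site 2 was 0.85 (SE 0.434, exact permutation P = 0.257), and that of site 1 was -0.10 (SE 0.399, exact permutation P = 1.00). At site 8 all cannabis-exposed rats (6.91 to 11.8) were above all controls (2.19 to 6.71), with a log2 fold change of 1.01 (SE 0.521).

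Pcdh7, which binds a nuclear histone chaperone through its intracellular part, had 324.6, 295.7, 321.6 and 282.0 normalized counts in controls and 267.0, 320.8, 336.5 and 358.7 in cannabis-exposed rats. The groups overlapped and the log2 fold change was 0.06 (SE 0.185, 95% confidence interval -0.34 to 0.46, exact permutation P = 0.571). Sites of Pcdh7 showed 1 rat that stood apart from the rest. Site 3 had 73.3 normalized counts in cannabis replicate 1 and 6.64 to 27.5 in the other rats, which was 27.4% of the gene's reads in that rat. Site 2 was in turn low in cannabis replicate 1 (7.45, against 23.9 to 51.2).

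Pcdh11x, an X-linked gene with a role in dendrite growth, had 137.0 to 174.0 normalized counts in controls and 131.6 to 170.5 in cannabis-exposed rats. The groups covered nearly the same range, and the log2 fold change was -0.06 (SE 0.200, 95% confidence interval -0.49 to 0.37, exact permutation P = 0.543). Its leading site had 39.5, 31.1, 47.7 and 41.7 in controls and 27.3, 37.2, 30.5 and 40.7 in cannabis-exposed rats. Pcdh19, the X-linked gene of a familial epilepsy with intellectual disability, also had overlapping groups, with totals of 203.2 to 307.7 and 192.5 to 287.3. The log2 fold change was -0.04 (SE 0.212, 95% confidence interval -0.50 to 0.41, exact permutation P = 0.771). Its site 1 had 114.0, 204.7, 128.2 and 174.8 normalized counts in controls and 167.6, 132.2, 120.1 and 173.6 in cannabis-exposed rats. Site 2 of Pcdh19 was lowest in cannabis replicate 1 (16.1) and air control replicate 4 (37.7), and the remaining rats had 52.6 to 119.6.

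The lowly expressed members gave wide intervals. Pcdh8, an activity-induced protein that promotes removal of cadherin from synapses, had 65.8, 31.1, 39.6 and 9.93 normalized counts in controls and 22.4, 45.2, 26.6 and 59.9 in cannabis-exposed rats. The highest and the lowest value were both controls, and the log2 fold change of 0.23 (95% confidence interval -0.83 to 1.30, exact permutation P = 0.943) turned to -0.27 without air control replicate 4 and to -0.01 without cannabis replicate 5. Pcdh1, known mainly from epithelia, had 11.97 to 31.8 and 9.84 to 18.4 normalized counts, and a log2 fold change of -0.30 (95% confidence interval -1.11 to 0.51, exact permutation P = 0.457). These intervals include changes of more than 1 unit on the log2 scale for Pcdh8 and Pcdh1.

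Pcdh18, a protein that can bind the adaptor Dab1, had 16.1, 17.96, 21.5 and 17.9 normalized counts in controls and 14.9, 27.2, 31.5 and 26.1 in cannabis-exposed rats. Apart from cannabis replicate 1, cannabis-exposed rats were above the controls. The log2 fold change of the total was 0.38 (SE 0.326, 95% confidence interval -0.32 to 1.08, exact permutation P = 0.143). Its minor site 2 was read 17 times over all libraries. That site had 0.731, 1.197, 0.671 and 0 normalized counts in controls and 1.24, 2.66, 5.90 and 2.30 in cannabis-exposed rats, so that the groups did not overlap, with P = 0.0286 by the exact permutation test (two-sided, n = 4, the smallest it can give). Of these values, 6 lie at or below the level of 3 reads in their library, and those of cannabis replicates 2 and 3 lie above it with 4 and 6 reads.

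Over the sites, 4 of the 227 passed P under 0.01, beside 0.381% of all sites (0.123% higher and 0.258% lower in cannabis-exposed rats). These were Pcdh9 sites 3, 4 and 28 and Pcdh10 site 1. Since Pcdh9 sites chose the set, nothing is read from the count over all 227. Outside Pcdh9 this left 1 of 111 sites, and 0 of these 111 passed an adjusted P under 0.1 in limma, edgeR or DESeq2, where 0.00102% of all sites did in limma. At an unadjusted P under 0.05 there were 13 of the 227 sites and, outside Pcdh9, 2 of 111, beside 3.03% of all sites. The groups did not overlap at 9 of the 227 sites (3.96%), of which 8 were higher in cannabis-exposed rats, beside 2.0% of all sites. Most of these were Pcdh9 sites, so nothing is read from this count either. Among the 111 sites outside Pcdh9, the groups did not overlap only at Pcdh17 site 8 and Pcdh18 site 2. The median log2 fold change was -0.04 over the protocadherin sites and 0.01 over all sites.

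**Figure D4:**
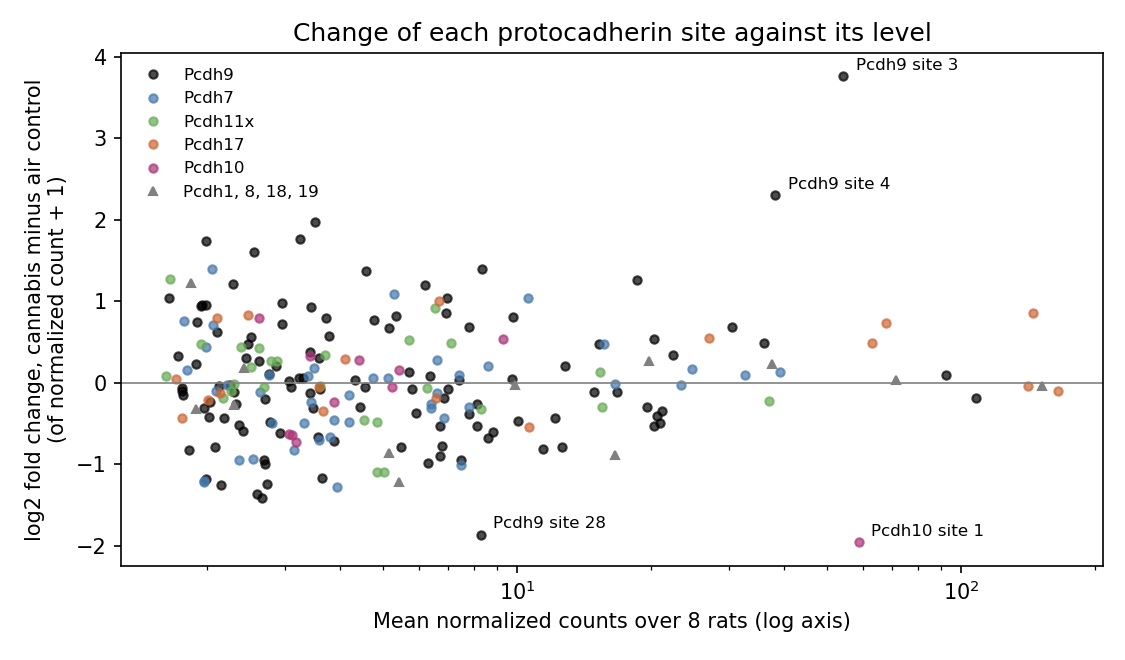
Log2 fold change of each of the 227 protocadherin sites, cannabis minus air control on the log2(normalized count + 1) scale, against the mean over 8 rats on a log axis, coloured by gene. Among sites with a mean of at least 10, Pcdh9 sites 3 and 4 at 3.76 and 2.30 and Pcdh10 site 1 at -1.96 lie furthest from 0, and thinly read sites scatter more widely.

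Use of the sites within a gene was compared with limma's diffSplice for 3603 genes with at least 2 sites of mean 10 or more, of which 0.333% passed P under 0.01 and 0.00% an adjusted P under 0.1. Among the members tested other than Pcdh9, whose sites chose the set, P was 0.385 for Pcdh17, 0.527 for Pcdh19, 0.763 for Pcdh11x and 0.899 for Pcdh7. Single rats differed widely in site use for some genes. The share profile of Pcdh7 in cannabis replicate 1 lay 42.9 percentage points from the mean profile of the other rats, against 7.43 to 16.2 for the other libraries. For Pcdh19 the same rat was furthest (30.1), and for Pcdh17 air control replicate 4 (29.8) and cannabis replicate 1 (29.0) were. For Pcdh11x, air control replicate 2 (23.1) and cannabis replicate 5 (20.5) were furthest and air control replicate 4 was close (1.77), and for Pcdh9 cannabis replicate 1 (26.5) and air control replicate 1 (25.9) were. Air control replicate 4 and cannabis replicate 1 are the libraries with most sites without a read, and over the 3603 genes they also had the highest median distance (13.1 and 11.03, against 7.24 to 9.52). Of the 45 protocadherin sites with a mean of at least 10, cannabis replicate 1 was the lowest cannabis-exposed rat at 24 (53.3%, beside 34.1% over all such sites) and the highest at 13. Whether depth or RNA quality had a part in this was not tested.

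Genes that work with these proteins were read as a background. Over all gene totals, 0.278% passed limma P under 0.01 and 2.41% passed P under 0.05. The groups did not overlap at 1.98% of all totals, and the median log2 fold change over all totals was 0.05. Of 12 other protocadherin-like genes (Pcdh12, Pcdh15, Pcdh20 and the Fat, Dchs and Celsr genes), 0 passed limma P under 0.01 and 0 passed P under 0.05, with a median log2 fold change of 0.06. Of 14 symbols of clustered protocadherins, 0 passed either threshold, with a median of 0.38. The symbol with the highest counts among these, Pcdha4, had 0.49 (SE 0.251, adjusted P = 0.999 by limma). Whether the counts under such a symbol came from that gene alone was not analysed. Of 16 classical cadherins and relatives measured, 0 passed P under 0.01 and 1 passed P under 0.05. This was Cdh4, a neuronal cadherin, with a log2 fold change of 0.57 (SE 0.206, adjusted P = 0.999 by limma) and groups that did not overlap. Of 17 intracellular partners, among them the WAVE complex genes and Taok2, the kinase through which Pcdh8 acts, 0 passed either threshold and the median was 0.09.

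The gene totals most like that of Pcdh9 over the 8 libraries were, among 9625 genes with a mean total of at least 20, Bsdc1 with Pearson's r of 0.962, Flt1 with 0.951, Srek1 with 0.931, Rasgrf2 with 0.905 and Cadm1 with 0.890. Among the members the highest r was 0.853, between Pcdh7 and Pcdh11x, and the r of Pcdh9 with the other members was from -0.554 with Pcdh10 to 0.472 with Pcdh17. These are descriptions over libraries that share depth and group.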

How the data were processed

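WTTS-Seq libraries of hypothalamus, 4 from cannabis-exposed and 4 from air-treated rats, were analysed, with groups and replicate numbers taken from the labels. The authors mapped the reads to Rnor_6.0, joined read ends within 24 nt into APA sites, set a minimum of 16 reads per site and assigned sites to genes. The values the authors deposited are a signal per site, namely the reads of a library over its DESeq2 size factor, with each library in its own unpooled file. Dividing by the smallest step returned whole reads for 100% of values (within 0.001 reads).

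Sites and gene totals were tested with limma 3.58.1 (R 4.3.3) with a mean-variance trend on log2(normalized count + 1), all 98356 sites or 18003 totals in 1 fit without covariates and with Benjamini-Hochberg adjustment over all of them. This scale understates changes of low values. Use of sites was tested with limma's diffSplice F test. Single values had an exact permutation test (two-sided), whose smallest P at 4 against 4 is 0.0286. Thresholds were P of 0.01 and adjusted P of 0.1. The fits were tested on simulated data. Python 3.11.15 and scipy 1.17.1 were used otherwise. The members, gene lists and named sites were chosen with earlier results of these data known. Named are the members, sites among the 3 most used of each, sites and listed genes at P under 0.01, and the 5 genes most like Pcdh9. Other sites and genes were named after their values were seen. Alternatives were edgeR 4.0.16 and DESeq2 1.42.0 on the recovered reads, other pseudocounts and filters, the replicate block, and each library left out, plus an added fit without the libraries with most empty sites. Positions came from site tables of the study matched on symbol and all 8 values. The labels give a group and a number for each library and do not say how many rats it holds. Each library was taken as 1 rat, and on that reading P measures the spread between these rats. Intervals of counts and the floor of 3 reads cover counting error only.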

Additional observations from a re-analysis of the deposited data

Results flagged for a closer look

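Of 68 groups of 4 values checked, 2 had a sample far from the others, and chance alone flags about 1 in 20 such groups. Pcdh11x site 3 had 8.38 normalized counts in air control replicate 2, where the other air-treated controls had 14.6 to 15.9. Pcdh18 site 1 had 13.7 normalized counts in cannabis replicate 1, where the other cannabis-exposed rats had 23.8 to 25.6.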

How the results depend on the processing

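The count of protocadherin sites with limma P under 0.01 was 4, and it was 2 among sites with a mean of at least 10, 4 with the replicate number as a replicate block and 3 to 6 with each library left out. This count includes Pcdh9 sites, which chose the set, so nothing is read from it. Over all sites the count fell from 375 to 44 with a mean of at least 10 and to 229 with the replicate block, and was 231 when air control replicate 1 was left out, 617 for air control replicate 3, 594 for cannabis replicate 1 and 227 for cannabis replicate 5. In the block the rats numbered 4 and 5 stand alone, so the change rests on 3 pairs. The labels link same-numbered rats by number alone. The correlations of their deviations were -0.23, 0.08 and -0.003, where those of differently numbered rats ran from -0.35 to 0.47. Whether same-numbered rats shared a batch was not tested. With the replicate block Pcdh10 site 1 was -0.85 and lost P under 0.01. The count of gene totals was 0, 1 in DESeq2 and 0 to 1 with libraries left out. The count for use of sites, a description since the 1 gene in it is Pcdh9, whose sites chose the set, was 1, 0 in edgeR, 1 with the replicate block, and 0 to 1 with libraries left out (0 when air control replicate 1 or 3 or cannabis replicate 3 was left out). Pcdh7 total turned from 0.06 to -0.0327 with the replicate block. Pcdh8 total turned from 0.23 to -0.52 with the replicate block, -0.0257 in edgeR, -0.0123 in DESeq2, -0.06 without both air control replicate 4 and cannabis replicate 1, and was -0.27 to 0.60 with libraries left out. Pcdh11x total was -0.13 to 0.0143 and Pcdh19 total -0.14 to 0.0666 with libraries left out, and Pcdh19 total was 0.03 without both libraries named above. Pcdh10 site 1 lost P under 0.01 without both of those libraries (-1.47), with a pseudocount of 0.5 and among sites with a mean of at least 10 (-1.96), where the trend is fitted to fewer sites, and was -2.71 to -1.29 with libraries left out. For the Pcdh9 sites, which chose the set, P is a description only. It was above 0.01 at site 28 without air control replicate 3 (-1.75) or cannabis replicate 2 (-1.47). At Pcdh9 site 3 it was above 0.01 in edgeR and DESeq2. Pcdh9 site 3 was 2.86 to 4.76, site 4 1.88 to 2.60, site 28 -2.17 to -1.47 and the total 0.14 to 0.23 with libraries left out. The other members' totals kept their sign in every alternative run. The cause of these changes was not tested. Depth limits the 182 sites with a mean under 10, and a fold change against a control at 0 depends on the pseudocount.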
